A study of Mus musculus with 9 samples.

Results

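Pre-B and immature B-like cells of the mouse bone marrow were described here, 103 of 880 kept cells (11.7%). A cell was taken as a member when its raw counts of 6 B-lineage genes (Ighm, Fcrla, Cd72, Cd79a, Cd79b and Bcl7a) summed to 3 or more. It also had to hold fewer than 2 counts of the pro-B genes Vpreb1, Vpreb2, Igll1 and Dntt, less than 2% of its counts in S100a8 and S100a9, and less than 0.5% in Mpo, Elane, Prtn3 and Ctsg. Members were thus chosen by the measured levels of these genes in the same cells, and those levels are given as a description.

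The cells came from whole bone marrow of C57BL/6 mice aged 2 to 3 weeks, profiled by Drop-seq, in which a bead carries a barcode that tags the RNA of a single cell. Both groups carried NG2-cre, a Cre recombinase under the promoter of NG2 (gene Cspg4), a proteoglycan of pericytes and mesenchymal stromal cells. The control group was NG2-cre/Pot1a wt/wt (5 libraries), and in the NG2-cre/Pot1a fl/fl group (4 libraries) the Cre removes Pot1a, which binds telomeric DNA, from cells of the NG2 lineage. Blood cells such as the members are not the target of this Cre, so the comparison asks how B-lineage cells stood in a marrow whose stromal cells lacked Pot1a. Which mouse gave which library is not known from the labels. The study used fewer mice than libraries, so p-values measure the spread between libraries, which may be technical in part.

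Each library held 100 barcodes and 119459 to 465277 counts. Pot1a wt/wt 2 and 3 shared 19 barcodes, the only sharing among 36 pairs of libraries. Depth-scaled, log-transformed counts of a shared barcode correlated at 0.911 to 0.965 between both libraries, against at most 0.742 for the best other cell. These cells were kept in Pot1a wt/wt 2 and dropped from Pot1a wt/wt 3, 4 of them members. Another barcode was dropped for its mitochondrial counts. Members held 260257 counts in all, with a median of 1912 per cell (335 to 16631).

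B cells arise in the marrow in steps. Pro-B cells join the gene segments of the immunoglobulin heavy chain, large pre-B cells carry that chain with a surrogate light chain of Vpreb and Igll1 proteins and divide, and small pre-B cells stop dividing and rearrange a kappa or lambda light chain. Immature B cells then show complete IgM with the signalling partners Cd79a and Cd79b, and gain genes of the mature cell such as Ms4a1 (CD20) and MHC class II.

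Promoter windows (RefSeq, GRCm38.p6) ran from 250 bases before to 50 bases after the start listed for each. They were looked up for the 6 genes of the rule and for Igkc, Il7r and Vpreb3, and 5 of the 9 matched (Fcrla, Cd72, Cd79a, Il7r and Vpreb3). Both strands were searched for the palindrome of early B-cell factor, which 0.904% of 32851 windows hold, the octamer ATTTGCAT (1.74%), and the E-boxes CAGGTG (20.2%) and CAGCTG (16.3%). The octamer is a motif of Oct factors with their B-cell coactivator Pou2af1, and E-boxes are motifs of E proteins. The windows below are shown because they are the ones with a match, marked in capitals.
Cd79a, chr7:24897247-24897546, plus strand: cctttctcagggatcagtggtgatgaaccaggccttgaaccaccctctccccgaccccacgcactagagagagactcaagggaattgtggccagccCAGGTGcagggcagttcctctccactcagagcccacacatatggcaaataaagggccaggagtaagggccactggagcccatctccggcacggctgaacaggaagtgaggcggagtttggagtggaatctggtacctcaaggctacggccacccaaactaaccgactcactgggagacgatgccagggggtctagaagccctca
Fcrla, chr1:170927534-170927833, minus strand: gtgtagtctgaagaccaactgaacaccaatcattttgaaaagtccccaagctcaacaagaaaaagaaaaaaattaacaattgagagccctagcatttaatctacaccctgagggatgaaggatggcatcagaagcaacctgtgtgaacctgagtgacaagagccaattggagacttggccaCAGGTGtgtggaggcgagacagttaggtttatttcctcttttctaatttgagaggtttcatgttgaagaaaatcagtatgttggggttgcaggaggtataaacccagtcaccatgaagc
Vpreb3, chr10:75948050-75948349, plus strand: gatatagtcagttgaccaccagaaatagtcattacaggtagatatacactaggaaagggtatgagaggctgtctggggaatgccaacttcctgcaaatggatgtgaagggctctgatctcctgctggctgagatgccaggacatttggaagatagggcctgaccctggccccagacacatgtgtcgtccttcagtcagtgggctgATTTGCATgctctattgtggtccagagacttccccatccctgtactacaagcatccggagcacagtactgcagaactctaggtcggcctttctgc
Counted from the start that each window was drawn on, the Cd79a E-box began at -154, the Fcrla E-box at -69 and the Vpreb3 octamer at -45. For Cd79a that is the start of the gene span (24897497). The windows of Fcrla and Vpreb3 lay inside their gene spans, 170917594 to 170932216 and 75943024 to 75949657. Their positions are thus not distances from the outer start of the gene. The windows of Cd72 and Il7r held 0 matches. A match is a string of letters and not a measured binding site.

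All 6 markers fixed for the class were detected, and their summed level was 4980 CPM (counts per 1000000 counts of the cells summed) in members, against 2295 in pro-B-like cells (cells past the Vpreb1, Vpreb2, Igll1 and Dntt limit, 122 cells) and 202 to 305 in globin-rich cells, neutrophil-lineage cells and all other cells. Ighm, the heavy chain of IgM (chromosome 12, 113418826 to 113422730, GRCm38), stood at 1614 CPM and had a count in 95.1% of members. Fcrla, an Fc receptor-like protein of B cells, stood at 580 CPM, Cd72, a coreceptor of the B-cell receptor, at 388, and Bcl7a at 638. Cd79b stood at 480 CPM and Cd79a at 215, and Cd79a was not higher than in pro-B-like cells (222 CPM). These values follow from the choice of cells. Of the 103 members, 88 had counts in 3 or more of the 6 genes and 2 rested on 1 gene alone, in 1 case Ighm and in the other Bcl7a.

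Igkc, the kappa light chain constant gene (chromosome 6, 70726435 to 70726754), was not used by the rule. It stood at 1310 CPM in members, 184 in pro-B-like cells and 75.9 in the neutrophil lineage. A count of Igkc was found in 69.9% of members (median 1912 counts per cell), in 29.5% of pro-B-like cells (median 2980) and in 13.2% of neutrophil-lineage cells (median 2179). The last should lack the gene, so its share was taken as the background of free RNA. After every cell was thinned to 500 counts the shares were 38.6%, 9.02% and 3.17%. The kappa joining segment Igkj1 had 45 counts in members (173 CPM against 9.34 in pro-B-like cells), and Igkj2 to Igkj5 had 6 together. The lambda constant gene Iglc2 had 16 counts in 6 members, 11 of them in 1 cell of Pot1a wt/wt 1.

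Near the threshold the members were less distinct. Cells with a sum of 2, just outside, numbered 39 and had Igkc in 12.8% and Vpreb3 in 30.8%. Cells with a sum of 3, just inside, numbered 13 and had Igkc in 38.5% and Vpreb3 in 30.8%, and the 8 members with a sum of 4 had them in 37.5% and 62.5%. Through the surrogate light chain limit 102 cells with the required sum had been set aside, 23 through the myeloid limits, and 3 through both.

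In the list for the pre-B-cell receptor and recombination, Vpreb3, a chaperone-like partner of the immunoglobulin chains, stood at 1276 CPM in members and 1228 in pro-B-like cells. Vpreb1 and Igll1, the surrogate light chain, stood at 38.4 and 34.6 CPM against 731 and 1050. Dntt, which adds bases at the heavy chain joints, had 0 counts in 103 members, which allows a share of up to 2.91% of cells with a count (not of cells that express it). The rule limited these 3 genes, so their low levels follow from the choice of cells. The recombinase genes Rag1 and Rag2 were sparse, with 8 and 10 counts, and 14 members had a count of either.

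The transcription factors of the lineage differed in how their levels compared with pro-B-like cells. Ebf1, the early B-cell factor, stood at 553 CPM against 649, and Pax5, which holds cells to the B lineage, at 304 against 268. By library the directions were mixed. Ebf1 was higher in members in 5 libraries and lower in 4, and Pax5 was higher in 3 and lower in 6. Pou2af1, the octamer coactivator, stood at 427 CPM against 285 (higher in 7 libraries, lower in 2). Bach2, a repressor of plasma cell fate, stood at 250 against 121 (higher in 5, lower in 4). Spib stood at 142 CPM against 37.4, Ikzf3, of the Ikaros family, at 88.4 against 28.01 and Irf4, which acts in light chain rearrangement, at 53.8 against 11.7. On the other side, Lef1 stood at 99.9 CPM against 315, lower in 8 libraries. Myb, named after its values were seen, stood at 296 CPM against 418 and was lower in members in all 9 libraries. Erg had 0 counts in members and 76 in pro-B-like cells, at least 15.4-fold lower in members (against a floor of 3 counts over all members).

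These differences from pro-B-like cells are given without a test, because the same counts divided both classes. Of the 15 genes with the largest ratio over pro-B-like cells, Igkc, Fam129c and Nfkbia were higher in all 9 libraries. The 15 also held Lyz2 of the monocyte and macrophage list (507 against 154 CPM) and Car2 of the erythroid list (1187 against 388). Smek2 was among them too (899 against 254 CPM), with 159 of its 234 counts in members from 1 cell. Fam129c, a B-cell gene of the Niban family, stood at 365 CPM against 86.4, and Nfkbia, the inhibitor of NF-kappaB, at 761 against 175. Cxcr4, the receptor that holds precursors near Cxcl12-producing stroma, stood at 150 CPM against 32.7. Btg1, an antiproliferative gene, stood at 657 against 203. The 15 genes with the lowest ratio, among those found in at least 20% of pro-B-like cells, were listed after values had been seen. Lower in members in all 9 libraries were 6 of them, Erg, Ddx18, Csnk1d, Tbc1d10c, Mif (169 against 759 CPM) and Crip1 (630 against 1784). Ccnd2, a D cyclin of growing cells, stood at 108 against 395 CPM, and Phgdh, an enzyme of serine synthesis, at 23.1 against 114. Against all other kept cells, the leading genes outside the rule were led by Igkc and Igkj1 and included Fam129c, Myl4, Atp1b1, Pafah1b3, Akap12, Bach2, Pou2af1, Ly6d and Plekha2.

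**Figure D1:**
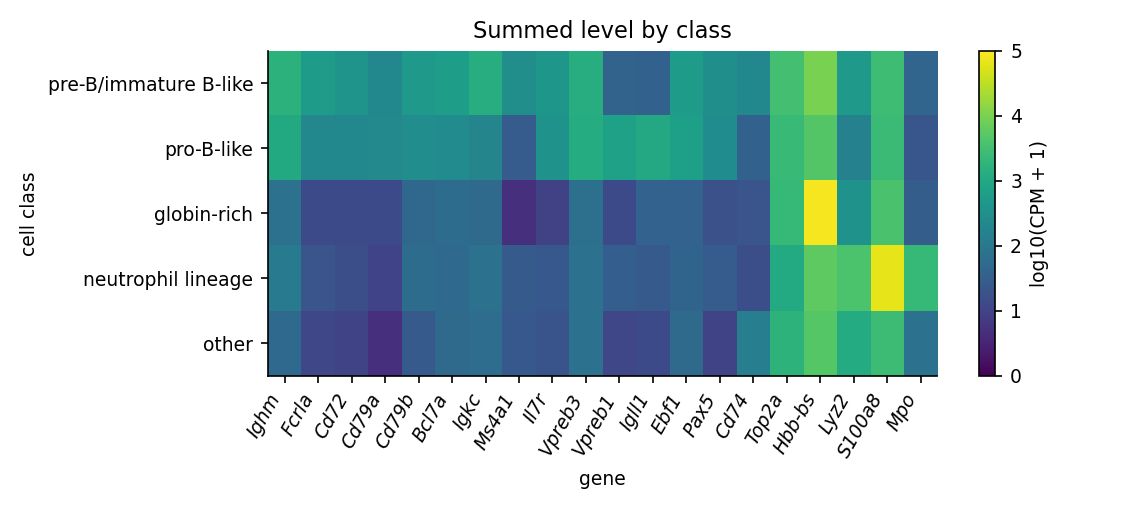
Level of 20 genes (columns) in the 5 cell classes (rows), as log10 of CPM plus 1 from 0 to 5, with the counts of all cells of a class summed. Members share Ighm and Vpreb3 with pro-B-like cells, lack the Vpreb1 and Igll1 levels of that class, and hold the highest Igkc level (1310 CPM).

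Cell-cycle genes were read in members and in the other classes. The 49 genes of the S phase and G2/M lists took a median of 3.70% of a member's counts, against 2.77% in pro-B-like cells, 3.68% in globin-rich cells and 1.55% in the neutrophil lineage. Hmgb2, a chromatin protein of dividing cells, stood at 8453 CPM, Top2a, the topoisomerase of mitosis, at 3228, Mki67 at 2551 and the replication clamp Pcna at 1241. Cells with Mki67 made up 84.5% of members, 85.2% of pro-B-like cells and 68.8% of the neutrophil lineage, so this share did not set members apart. The share was taken at unequal depth (median 1912 counts in members and 2980 in pro-B-like cells). In CPM, pro-B-like cells stood below members for Hmgb2 (6317), Top2a (2344) and Mki67 (1667), and above them for Pcna (1286).

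A smaller set of 15 members had under 1% of their counts in these lists, and its light chain and maturity genes were read beside those of the other members. Igkc stood at 6317 CPM in the 15 cells and at 979 in the other 88, with a count in 93.3% and 65.9% of them. Ms4a1 stood at 1734 against 201 CPM, Ighm at 4521 against 1422 and Cd79b at 1610 against 406. Ighm and Cd79b belong to the rule, and a shallow cell needs a higher CPM to reach its sum of 3. Their values are thus a description and say nothing on maturity. Cd74, the invariant chain of MHC class II, stood at 929 against 172 CPM. Il7r, the receptor for the growth factor of B-cell precursors, had a count in 26.7% of the 15 cells and in 53.4% of the other 88. The 15 cells were also the shallower, with a median of 1048 counts against 2106, so the lower Il7r share was set beside a level of 681 against 434 CPM, which goes the other way. No order was read from Il7r for that reason.

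The set was uneven over libraries. Pot1a wt/wt 1 held 10 of the 15 cells, Pot1a fl/fl 3 held 3, Pot1a wt/wt 2 and 5 held 1 each, and the other 5 libraries held 0. Within Pot1a wt/wt 1, Igkc stood at 5677 CPM in the 10 cells and at 2198 in the other 12, and all 22 members of this library had a count of Igkc. In Pot1a fl/fl 3 it stood at 8661 CPM in 3 cells and at 206 in the other 3. The first value was 15 counts in 2 shallow cells (539 and 335 counts), and the remaining cell had 0 and held RNA of another lineage. The pair of values was thus higher on the same side in both libraries, as it was in Pot1a wt/wt 2 and 5 with 1 cell each (2896 against 621 CPM and 14874 against 1286). The other genes were less even. Within Pot1a wt/wt 1, the rule genes Ighm and Cd79b stood at 4318 against 2054 CPM and 1679 against 717. Median counts per cell were 1229 against 1604. Cd74 was found in 4 of the 10 cells and 5 of the other 12 (960 against 573 CPM), and Ms4a1 in 3 and 2 (1919 against 191 CPM). Cells of 1 library are not replicates, and no test was made.

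**Figure D2:**
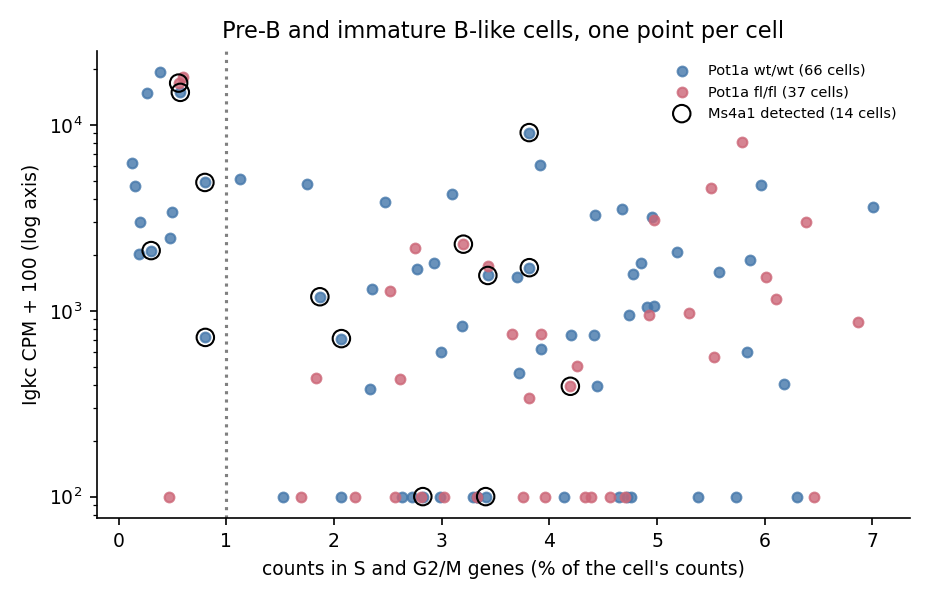
Share of a cell's counts in S phase and G2/M genes (horizontal, %) against Igkc (vertical, CPM plus 100, log axis) for the 103 members, Pot1a wt/wt in blue and Pot1a fl/fl in red, with rings around the 14 cells that had Ms4a1. Left of the dotted line at 1% lie 15 cells, 12 of them Pot1a wt/wt, of which 93.3% had Igkc.

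Genes of the mature B cell were found in a minority of members. Ms4a1 had 77 counts in 14 members, 12 of which also had Igkc and 11 of which had Cd74. Cd74 was found in 23 members, 22 of them with Igkc. Of the class II chains, H2-Ab1 had 30 counts and was found in 22.3% of members and 17.2% of pro-B-like cells (115 against 67.7 CPM), and H2-Aa and H2-Eb1 had 7 counts each. Igkc was found in 72.5% of the 51 members with Il7r and in 67.3% of the other 52. The immature B side of their name thus rested on the 14 cells with Ms4a1 and the 23 with Cd74.

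RNA of other lineages was measured in the members too. Among T and NK markers, Cd3e, Cd3g, Nkg7 and Klrd1 were at 0, and the list summed to 3.84 CPM. Of the plasma cell list, Xbp1, Mzb1 and Sdc1 summed to 300 CPM. The plasmacytoid dendritic list summed to 273 CPM with Ccr9 at 0, the megakaryocyte list to 38.4, the mesenchymal list to 57.6, the pro-B list to 76.8 and the primary granule list to 188. The neutrophil list reached 6021 CPM, close to its level in pro-B-like cells (5591) and far from the neutrophil lineage (191374). The erythroid list (20641 CPM) and the monocyte and macrophage list (1322 CPM) were above their levels in pro-B-like cells (8714 and 215). Single cells carried much of both. By a limit on these markers, set after the data were seen, 14 members (13.6%) held RNA of another lineage, 6 of monocytes, 6 of red cells, 1 of plasmacytoid dendritic cells and 1 of megakaryocytes. Such cells were 46.2% of the 13 members with a rule sum of 3 and 37.5% of the 8 with a sum of 4. Scrublet marked 5 members as doublets, 3 of them among these 14.

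The share of members was compared between genotypes. Members made up 22, 14, 7.41, 15.2 and 9% of kept cells in Pot1a wt/wt 1 to 5, against 14, 2, 6 and 15% in Pot1a fl/fl 1 to 4. The groups overlapped, and the extremes were Pot1a wt/wt 1 (95% Wilson interval 15 to 31.1%) and Pot1a fl/fl 2 (0.55 to 7%, from 2 cells). Such intervals cover counting error only. The means were 13.5 ± 5.76% (SD, n = 5) and 9.25 ± 6.29% (SD, n = 4), a difference of -4.26 percentage points (interval -14.5 to 6.25). The difference did not exceed the spread of the libraries (exact permutation p = 0.325, two-sided, over 126 splits, adjusted over both shares 0.325). Pot1a fl/fl 2 was also the library with the most neutrophil-lineage cells (66%). Without it the difference was -1.85 points, and without Pot1a wt/wt 1 it was -2.14.

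A fall or a rise of several points could not be detected at this spread. The rule asks for raw counts, so the share depends on depth (median per cell 956 in Pot1a fl/fl 3 to 3704 in Pot1a fl/fl 1). With cells thinned to 500 counts before the rule, Pot1a fl/fl 1 and 2 both stood at 4%. Pot1a fl/fl 3 was then lowest (2.27%) and Pot1a wt/wt 1 highest (15%). The difference was -2.99 points (exact permutation p = 0.294). Among cells outside the neutrophil lineage, members made up 19.5 ± 8.78% (SD, n = 5) and 15.02 ± 8.60% (SD, n = 4), a difference of -4.46 points (exact permutation p = 0.508).

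Among B-lineage cells, members and pro-B-like cells together, members made up 73.3, 56, 25, 51.7 and 45% in Pot1a wt/wt 1 to 5, against 58.3, 11.8, 35.3 and 38.5% in Pot1a fl/fl 1 to 4. Every Pot1a fl/fl value but that of library 2 lay within the range of the controls. The means were 50.2 ± 17.6% (SD, n = 5) and 36.0 ± 19.1% (SD, n = 4), a difference of -14.2 points (interval -43.2 to 13.2, exact permutation p = 0.286, two-sided, adjusted 0.325). It became -6.18 points when Pot1a fl/fl 2 was left out and -8.47 when Pot1a wt/wt 1 was.

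**Figure D3:**
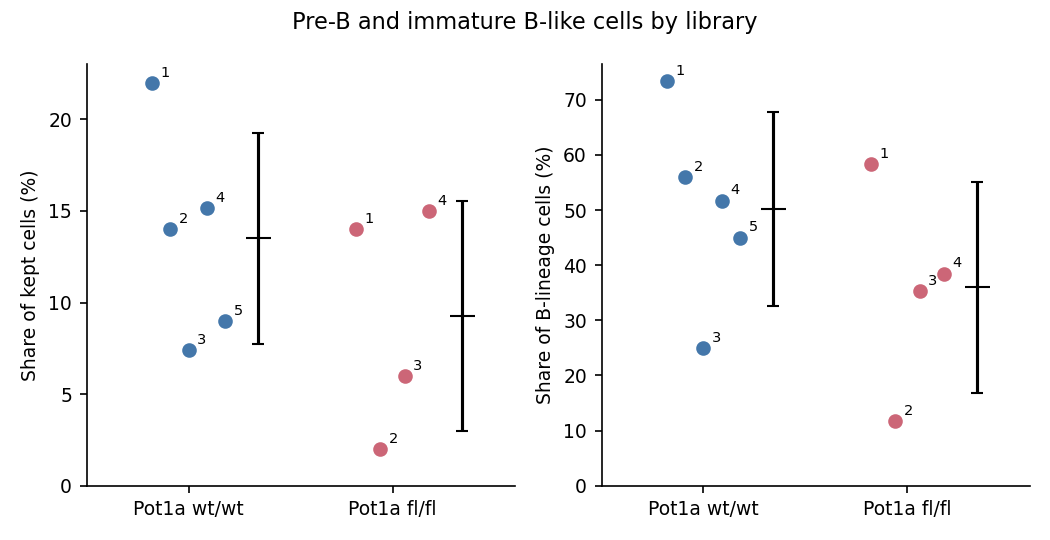
Share of members among kept cells (left, %) and among B-lineage cells (right, %) in the 5 controls (blue) and the 4 Pot1a fl/fl libraries (red), with replicate numbers beside the points and mean ± SD as black bars. Both groups overlap on both axes, and Pot1a fl/fl 2 is lowest (2% and 11.8%).

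Features within the members were compared after each cell had been thinned to 500 counts. Pot1a fl/fl 2 and 3 did not reach 5 such cells, so 5 libraries stood against 2 and the smallest p the 21 splits allow is 0.0476. Igkc was found in 37.3 ± 25.3% of thinned members of Pot1a wt/wt (SD, n = 5) and 27.4 ± 8.42% in Pot1a fl/fl (SD, n = 2), a difference of -9.89 points (exact permutation p = 0.81, adjusted 1). The control value rested on Pot1a wt/wt 1, at 72.7%, without which the difference was -1.03 points. Without thinning Igkc was found in 70.2% and 60.5% of members (5 against 3 libraries). Cd74 was found in 10.3 ± 11.4% (SD, n = 5) and 10 ± 14.1% (SD, n = 2, exact permutation p = 1, adjusted 1). Cells with 2 or more counts of the cell-cycle lists made up 94.0% and 100% (exact permutation p = 0.762, adjusted 1), a measure at its ceiling. The median cell-cycle share of counts in members was 1.91, 4.07, 4.42, 3.81 and 3.33% in Pot1a wt/wt 1 to 5, against 3.73, 3.58, 1.21 and 4.70% in Pot1a fl/fl 1 to 4, and the groups overlapped.

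Counts summed over the members of each library were then tested gene by gene between genotypes. Pot1a fl/fl 2 was left out with its 2 members, so 5 libraries stood against 3. Of 852 genes tested, 0 passed in either direction (0% called, lowest adjusted p = 0.578, edgeR's quasi-likelihood test). At an unadjusted p under 0.05 there were 30 genes (3.52% of those tested), 8 higher (0.939%) and 22 lower (2.58%) in Pot1a fl/fl. DESeq2 called 0, with 21 genes at an unadjusted p under 0.05. In simulated data for this comparison the test recovered 85.3% of genes changed 4-fold and 7.67% of those changed 2-fold (852 genes), so most changes of 2-fold would have been missed. The simulation changed 200 genes at once, gave every gene the same dispersion and held no single cells that carry most counts of a gene. Its recovery of 4-fold changes may therefore not hold for the real counts.

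The genes of the B lineage gave no call. The 6 genes of the rule do not count towards this, because the cells were chosen on their summed counts. The values of these genes are a description. Ighm stood at 1775 ± 705 CPM (SD, n = 5) in Pot1a wt/wt and 1613 ± 437 (SD, n = 3) in Pot1a fl/fl, and Cd79b at 599 ± 315 and 339 ± 74.8.

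Igkc stood at 3499, 680, 579, 1402 and 2296 CPM in Pot1a wt/wt 1 to 5 and at 523, 679, 2432 and 1085 in Pot1a fl/fl 1 to 4. High libraries occurred in both groups. The log2 fold change was -0.67 ± 0.57 (SE, adjusted p = 0.997, edgeR) and ran from -1.13 without Pot1a fl/fl 3 to -0.18 without Pot1a wt/wt 1, and Igkc in Pot1a wt/wt 4 came mainly from 1 cell with 42 of 62 counts.

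The 2 tested genes of the pre-B-cell receptor list, Vpreb3 and Hmgb1, a cofactor of the recombinase, had log2 fold changes of 0.19 ± 0.39 and 0.08 ± 0.33 (adjusted p = 0.997 for both, edgeR). Of 20 lineage transcription factors 7 were tested and 0 passed (median -0.10), among them Ebf1 at -0.10 ± 0.50, Sox4 at 0.07 ± 0.54 and Pou2af1 at -0.91 ± 0.51 (adjusted p = 0.997 for each, edgeR). Pou2af1 stood at 540 ± 232 CPM (SD, n = 5) and 222 ± 193 (SD, n = 3).

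Of the interleukin-7 receptor list 3 of 17 genes were tested. Il7r stood at 432 ± 289 CPM (SD, n = 5) and 439 ± 215 (SD, n = 3), and Ccnd3 and the kinase gene Pim1 had log2 fold changes of -0.18 ± 0.49 and -0.17 ± 0.82. Of the B-cell receptor signalling list 5 of 18 were tested, all 5 with a negative value (median -0.33) and 0 past the threshold. Cd37, a tetraspanin of B cells, stood at 546 ± 204 and 374 ± 334 CPM (log2 fold change -1.20 ± 0.54, adjusted p = 0.997, edgeR), Cd24a, which marks B-cell precursors, at 1829 ± 407 and 1323 ± 209, and the kinase gene Syk at 379 ± 208 and 253 ± 235. Of the niche and adhesion list, Itga4, the alpha chain of the VLA-4 integrin, was tested besides Il7r and had 0.56 ± 0.54, and of the survival list Pdcd4 alone, with 0.85 ± 0.56. No gene of the MHC class II list passed the filter on low counts.

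Cell-cycle genes did not differ detectably either. Of 24 S phase genes 8 were tested (4 positive, 4 negative, median -0.00047), and of 25 G2/M genes 19 (8 positive, 11 negative, median -0.05), with 0 past the threshold in both. Pcna had a log2 fold change of 0.00 ± 0.34, Nasp of -0.01 ± 0.36, Top2a of 0.03 ± 0.45, Hmgb2 of -0.05 ± 0.35 and Smc4 of -0.15 ± 0.46. The smallest p of these lists belonged to Dut (0.52 ± 0.42) and to Cenpf, a kinetochore gene (-0.68 ± 0.42, adjusted p = 0.997 for both, edgeR).

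Ms4a1 (chromosome 19, 11249679 to 11266149) was the only tested gene of 18 in the immature and mature B-cell list. It gave 837, 277, 0, 543 and 255 CPM in Pot1a wt/wt 1 to 5, against 163, 0, 152 and 0 in Pot1a fl/fl 1 to 4. The groups overlapped through Pot1a wt/wt 3 at 0, and the counts came from 11 of 66 Pot1a wt/wt and 3 of 37 Pot1a fl/fl members. Its log2 fold change was -2.17 ± 0.82 (SE, adjusted p = 0.981, edgeR) and did not pass. It was -4.07 without Pot1a fl/fl 1 and -1.45 without Pot1a fl/fl 4.

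The genes with the lowest p were those of other lineages, and these were named after their values were seen. Ly6c2, a surface protein of monocytes, stood at 89.7, 0, 0, 226 and 170 CPM in Pot1a wt/wt 1 to 5 and at 278, 2942, 304 and 1551 in Pot1a fl/fl 1 to 4. All Pot1a fl/fl values lay above all controls, and in 5 against 3 libraries the groups did not overlap for 2.93% of the genes tested (1.41% higher and 1.53% lower in Pot1a fl/fl). Its log2 fold change was 2.88 ± 0.74 (SE, adjusted p = 0.578, edgeR). Of its 89 counts in the tested Pot1a fl/fl libraries, 94.4% lay in members that held RNA of another lineage, a limit that used Ly6c2 itself, and 41 in 1 cell of Pot1a fl/fl 4. The monocyte and macrophage list, 5 of 5 genes detected, summed to 50.4 to 995 CPM in members of Pot1a wt/wt (median 359) and to 1029 to 6336 in those of Pot1a fl/fl (median 3119). In Pot1a fl/fl 2 and 3 all of these counts came from 1 cell each. A single cell also gave 71.4% of them in Pot1a fl/fl 1 and 75% in Pot1a wt/wt 4, the libraries nearest the gap. The pro-B list, which the rule limited, did not overlap either, in the other direction (72.4 to 136 against 0 to 66.5 CPM). The remaining marker lists overlapped between the groups.

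The erythroid list, 6 of 6 genes detected, went the other way, with 7081 to 160884 CPM in Pot1a wt/wt (median 21773) and 5167 to 12339 in Pot1a fl/fl (median 6624). The groups overlapped. Hbb-bs, a beta globin, stood at 15074, 2394, 9556, 9473 and 73129 CPM in Pot1a wt/wt 1 to 5 and at 2843, 4752, 3191 and 6712 in Pot1a fl/fl 1 to 4. Its log2 fold change of -2.53 and that of Hba-a1, -3.47, became -1.10 and -1.38 once members with RNA of another lineage, globins included in that limit, were removed (lowest adjusted p of all genes then 0.988, edgeR). Without Pot1a wt/wt 5 alone they were -1.09 and -1.78. Hemgn (-1.98 ± 0.58), a gene of red cell precursors, was no longer testable then. With these members removed, 0 of 711 genes passed and 14 (1.97%) had an unadjusted p under 0.05. The part of such cells in the B-lineage values was not tested further.

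Smek2 (Ppp4r3b), a subunit of protein phosphatase 4, had a log2 fold change of 2.07 ± 0.69 (SE, adjusted p = 0.578, edgeR), and 159 of its 191 counts in the tested Pot1a fl/fl libraries came from 1 cell of Pot1a fl/fl 1. Without that library it was -0.61. This was the only one of the 30 genes at an unadjusted p under 0.05 for which a single cell gave 50% or more of the counts in the higher group.

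**Figure D4:**
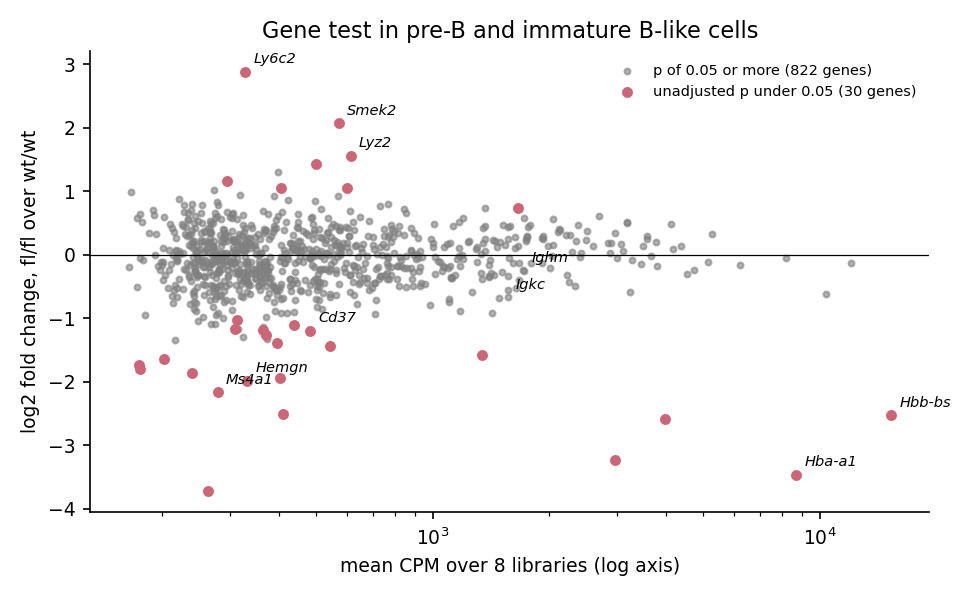
Mean level in members (horizontal, CPM, log axis) against the log2 fold change of Pot1a fl/fl over Pot1a wt/wt (vertical) for 852 genes, with the 30 at an unadjusted edgeR p under 0.05 in red and 0 past the adjusted threshold. Ly6c2 and Lyz2 of monocytes and Smek2 lie above 0, Hba-a1, Hbb-bs and Hemgn of red cells below it, and Ighm and Igkc near the middle.

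**Figure D5:**
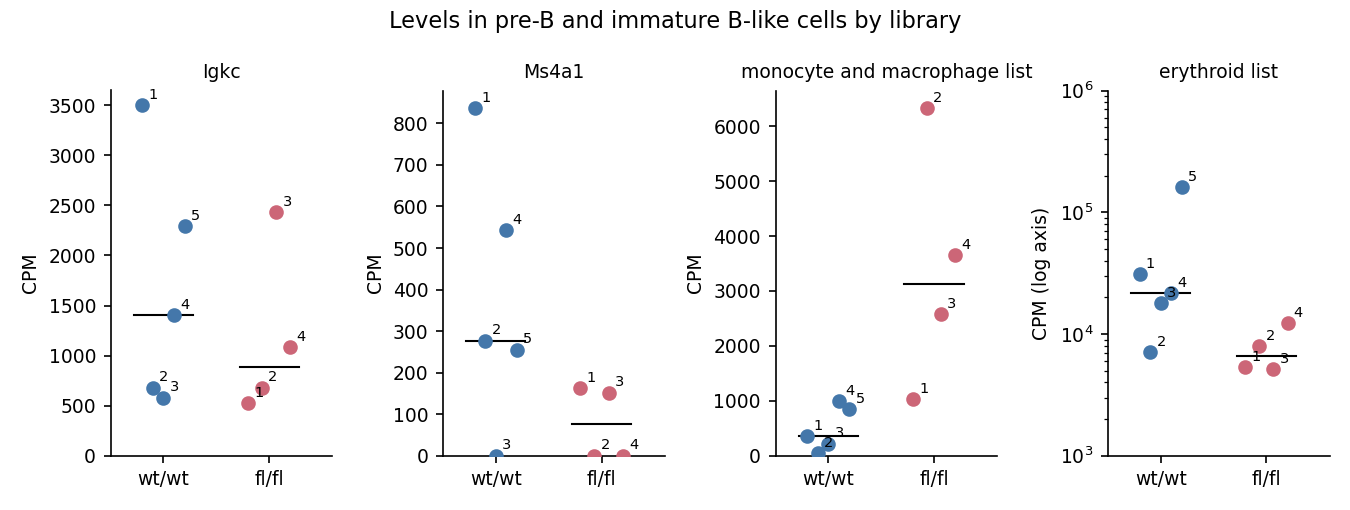
Level in members (CPM) of Igkc, Ms4a1 and the summed monocyte and macrophage and erythroid lists (the last on a log axis) in the 5 controls (blue) and the 4 Pot1a fl/fl libraries (red), with replicate numbers and medians as lines. The monocyte list is higher in each Pot1a fl/fl library (at least 1029) than in each control (at most 995), and the other 3 overlap. Single cells carry most of the monocyte counts at that gap, 71.4% in Pot1a fl/fl 1 and 75% in Pot1a wt/wt 4.

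Imp3, which acts in ribosomal RNA processing in the nucleolus (chromosome 9, 56937500 to 56938398), was looked up because earlier results on all marrow cells and on B-lineage cells had named it, so its values here support nothing independently. It was too low for the gene test. Members gave 0, 2, 2, 2 and 1 counts in Pot1a wt/wt 1 to 5, against 25, 3, 3 and 8 in Pot1a fl/fl 1 to 4. In CPM this was 0 to 145 and 177 to 679, and the groups did not overlap. Of 2479 genes with 20 or more counts in the members, 2.26% did not overlap over the 9 libraries (1.17% higher and 1.09% lower in Pot1a fl/fl), and of 10441 genes with a count, 0.9%. A count was found in 6 of 66 Pot1a wt/wt and 19 of 37 Pot1a fl/fl members. With no filter on low counts its log2 fold change was 2.53 (adjusted p = 0.44, edgeR, 10388 genes).

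Pot1a gave 4 counts in the members, 2 in each group, and Cspg4 gave 0, so these cells do not check the genotype labels.

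Whether the genotype effect differed between members and pro-B-like cells was tested as an interaction within libraries. Of 1330 genes tested, 0 passed (0% called, lowest adjusted p = 1, edgeR), and 37 (2.78%) had an unadjusted p under 0.05. Without Pot1a fl/fl 4, 1 gene passed, Smek2 (adjusted p = 0.041, edgeR), the gene whose counts in Pot1a fl/fl 1 came mostly from 1 cell. No gene effect was called particular to the members.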

How the data were processed

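Drop-seq libraries of whole bone marrow were used, 5 of NG2-cre/Pot1a wt/wt mice and 4 of mice with NG2-cre/Pot1a fl/fl. The authors deposited raw counts per gene and barcode, 100 barcodes per library; per the labels and methods reads were aligned to mm10 with STAR and read counts per gene and cell were made with the Drop-seq software, of versions not given in the sources used here. Whether reads of 1 molecule were collapsed, and how the 100 barcodes were chosen, is not stated. Members and lists were chosen with earlier results of these data known. Barcodes over 25% mitochondrial counts and cells shared by libraries were dropped (1 and 19 removed, 880 kept). Doublets stayed in, and were removed only as an alternative.

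Shares and features were compared by two-sided exact permutation over libraries, with Benjamini-Hochberg adjustment. Genes were tested in libraries with at least 5 members with edgeR 4.0.16 (quasi-likelihood, TMM, filterByExpr, adjusted p threshold 0.05) in R 4.3.3. The interaction fit took library as a term. Alternatives used DESeq2 1.42.0, limma 3.58.1 and Scrublet in scanpy 1.11.5. The tests were tried on simulated counts. CPM are counts per 1000000, and ratios between classes were ranked with 20 CPM added among genes found in at least 20% of members (of pro-B-like cells for the lowest ratios). Genes were named if they belonged to the rule, the markers, the 3 highest or the lowest p of a list, or the 15 highest ratios. Others are said to be named after their values were seen. The result of 1 gene is not reported here. A member was said to hold RNA of another lineage at 3 or more counts of Ly6c2, F13a1, Ccr2 and Csf1r, 2 or more of Siglech, Ccr9 and Cox6a2 or of Pf4 and Ppbp, or 5% or more globin counts. Same-numbered libraries did not deviate together (correlations -0.15, -0.25 and -0.18), so no pairing was used.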

Additional observations from a re-analysis of the deposited data

Results flagged for a closer look

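Of 27 groups of libraries checked for a single library far from the others, 2 stood out, where chance gives about 5% of groups. Both were globin genes in members of Pot1a wt/wt 5, and the distance was judged by the gap to the nearest library over the range. Hba-a1 stood at 47364 CPM, with 1411 to 7327 CPM in the other 4 control libraries. Hbb-bs stood at 73129 CPM, with 2394 to 15074 in the others. In this library 1 of the 9 members carried 90.7% of the counts of the erythroid list, and Hbb-bs had 742 of its 860 counts in 1 cell.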

How the results depend on the processing

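Both shares kept a negative difference and stayed within the spread between libraries under every alternative run (22 and 21). With 1 library left out the difference among kept cells ran from -6.18 to -1.85 points and that among B-lineage cells from -21.7 to -6.18. With permutation within replicate numbers (replicate block) they were -5.39 (p = 0.125, the smallest its 16 splits allow) and -15.6. Counting shared cells in both libraries, in the other one, or taking the pair as 1 library, and permuting within sex as read from Xist and Y-linked transcripts, changed no call. Counting shared cells in both, the split by sex, the removal of members with RNA of another lineage and the fit of all 9 libraries were chosen after seeing the data.

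The Cd74 share turned sign in 4 alternatives and that of Igkc in 1: thinned to 1000 counts, Igkc differed by 2.78 points and Cd74 by 2.84, and with 1 library left out Igkc ran from -15.8 to -1.03, Cd74 from -10.3 to 9.68 and cycling from 1.79 to 7.47. The replicate block gave -19.0, -4.70 and 11.4.

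Among 852 genes the replicate block, which uses replicates 1, 3 and 4 as pairs, called 1 gene, Hba-a1, lower in Pot1a fl/fl, and the other fits called 0 except that without a filter on low counts, which called 12 of 10388, 7 higher (among them Ly6c2, Ccr2, Fcer1g and Smek2) and 5 lower (4 globin genes and Nudt13). The cause was not tested. With 1 library left out the count stayed 0, and for the interaction with pro-B-like cells it ran from 0 to 1. Single genes that turned sign were Smek2 (-0.52 by limma on scaled cells, and -0.61, without Pot1a fl/fl 1, to 2.58 with 1 library left out), Igkc (0.10 by limma on scaled cells), Pdcd4 (-0.30, without Pot1a fl/fl 1, to 1.28) and Vpreb3 (-0.021 with the replicate block, -0.22 with at least 10 members per library, -0.0011 with all 9 libraries, and -0.19, without Pot1a fl/fl 3, to 0.51 with 1 library left out). Few cells per library, 2 to 22 members, limit all values.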
